A study of Mus musculus with 4 samples.

Results

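Transcription factor genes of 2 families, the nuclear receptor genes Nr4a1, Nr4a2 and Nr4a3 and the HMG-box genes Tox and Tox2, were followed in activated CD4+ T cells that lacked Irf4 and in wild-type cells. They were read by the array probes whose accession belongs to 1 of these 5 symbols, 8 probes of the 56605 non-control probes on the array. The 5 genes stand among 45616 genes or unnamed transcripts on the array, and all 5 were bright enough to be among the 20506 that were tested.

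The Irf4-deficient cells came from Irf4-/- mice and their controls from wild-type mice, both male and on the C57BL/6 background. Naive splenic CD4+ T cells were sorted as positive for CD62L and negative for CD44, and 100000 per well were stimulated beside mitomycin C-treated syngeneic antigen-presenting cells; the stimulus was 1 µg per ml of anti-CD3e. On day 2, living CD4+ cells were sorted and total RNA was hybridised to 1 one-colour array per sample, with 2 samples per genotype from what the labels call independent experiments. The labels name no Cre or conditional allele and do not say which part of Irf4 is deleted. One protocol label names shorter cultures, whereas sample titles and the study design both give day 2, which was used.

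NR4A proteins are orphan nuclear receptors that are made within a short time of antigen receptor engagement, through calcium and kinase signals, and that bind DNA without a known need for a hormone. TOX proteins bind DNA through an HMG box. In T cells Tox is switched on by calcineurin and NFAT, it is needed for CD4+ cells to develop in the thymus, and together with the NR4A factors it is known for the exhausted state of T cells under lasting stimulation, in which the inhibitory receptor PD-1 is highly expressed. Irf4 is itself induced by the antigen receptor, in proportion to the strength of the signal.

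Without Irf4, the signals of Nr4a2, Tox and Nr4a1 were higher on both Irf4-/- arrays than on both wild-type arrays, by 3.73-fold, 3.02-fold and 1.68-fold. For Nr4a3 1 probe was higher on both Irf4-/- arrays and the other overlapped, and Tox2 was dim, with overlapping genotypes. None of the 5 genes passed the test over all genes. With limma and Benjamini-Hochberg adjustment at a threshold of 0.05, 0 of 5 were called, where 0.736% of all genes tested were (0.493% as higher in Irf4-/- cells). At an unadjusted p under 0.05, 3 of 5 were called, all as higher, where 11.4% of all genes were (6.35% as higher), and the same 3 had both Irf4-/- arrays above both wild-type arrays, as did 17.9% of all genes. The reverse order held for 21.3% of all genes, and 39.2% had no overlap in either direction. These shares describe the genes and test nothing about them as a group.

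**Figure D1:**
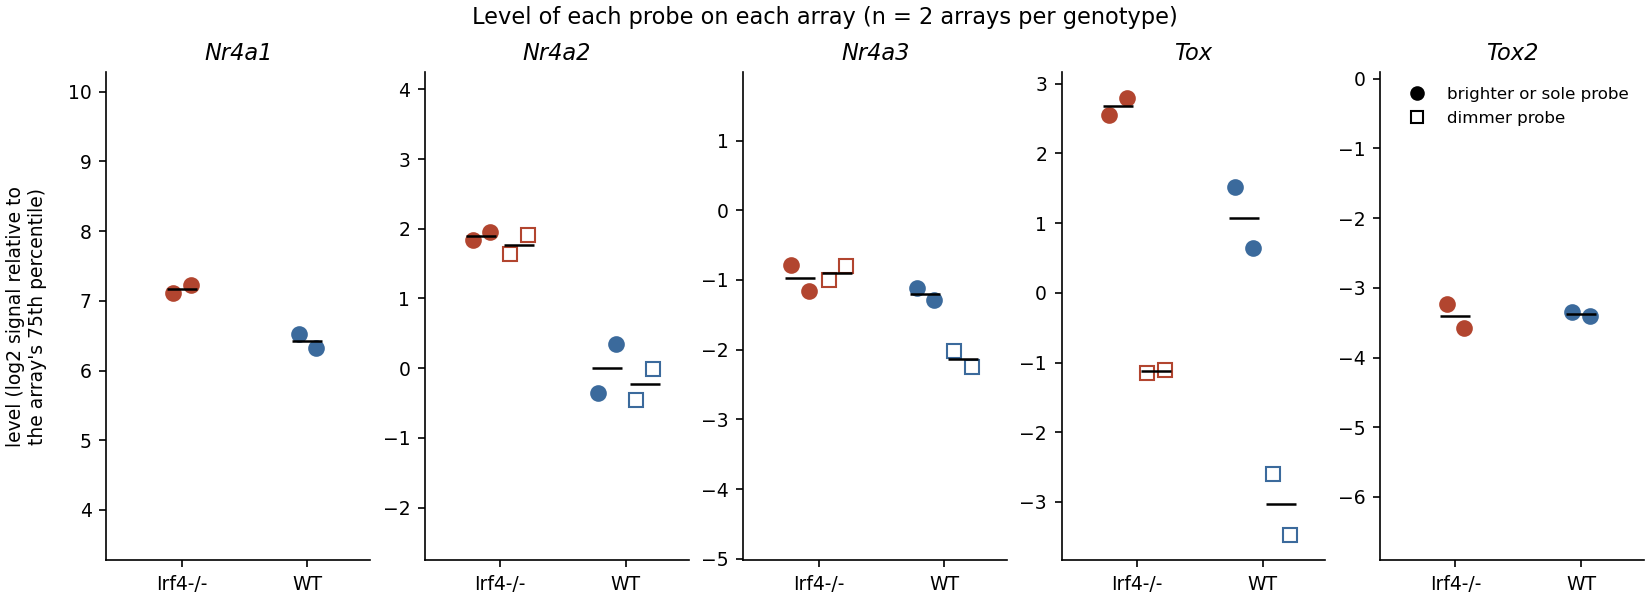
Level of every probe of the 5 genes on each array, in log2 signal over the 75th percentile of that array, with Irf4-/- arrays (red) left of wild-type arrays (blue) and a bar at the mean of the 2 arrays. The axes cover equal spans but start at different levels; both probes of Nr4a2 and Tox and the dimmer Nr4a3 probe stand higher on the Irf4-/- arrays, whereas the points of the brighter Nr4a3 probe lie close together and those of Tox2 overlap.

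The arrays differed in detection by replicate number more than by genotype. Replicate 1 had 28784 (Irf4-/-) and 28324 (wild type) probes well above background, against 25710 and 26406 for replicate 2. The lowest signal so called was 11.7 and 12 on replicate 1, against 19.9 and 18.3 on replicate 2. Arrays of 1 genotype correlated at r = 0.989 (Irf4-/-) and r = 0.992 (wild type) over the tested genes, which are not independent replicates. Irf4, the deleted gene, had levels of 4.23 and 4.04 on the Irf4-/- arrays, against 5.03 and 4.74 on the wild-type arrays. That difference of -0.75 ± 0.20 (SE) did not pass (limma, adjusted p = 0.231), and a second Irf4 probe, also above background on every array, differed by -0.37 (adjusted p = 0.510 among all probes). No label places either probe relative to the deletion, so neither is a check of the genotype. Replicate 1 of each genotype lay in slide row 1 and replicate 2 in row 2, while the Irf4-/- arrays lay in slide columns 3 and 2 and both wild-type arrays in column 1, so slide column and genotype cannot be told apart.

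Levels below are given as log2 of the signal over the 75th percentile of the same array. Differences are Irf4-/- minus wild type, with limma's moderated standard error (SE) and n = 2 arrays per genotype. Levels of different probes are not compared with each other, since brightness depends on the probe. In these bulk samples, fewer cells of a type and less RNA per cell cannot be told apart.

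The promoters of the 3 NR4A genes are shown because their RefSeq windows have a feature in common. Each window runs from 250 bases before to 50 bases after the annotated start in GRCm38.p6, and each of the 3 held 4 matches to TGACG, the half-site of the cAMP response element, counted on both strands. The stretches below run 5′ to 3′ on the strand of the gene and hold all 4 matches, which are in capitals (TGACG, or CGTCA where the match is on the other strand). They lie at chr15:101266608-101266815 on the plus strand for Nr4a1, at chr2:57124105-57124208 on the minus strand for Nr4a2, and at chr4:48045069-48045167 on the plus strand for Nr4a3.
Nr4a1: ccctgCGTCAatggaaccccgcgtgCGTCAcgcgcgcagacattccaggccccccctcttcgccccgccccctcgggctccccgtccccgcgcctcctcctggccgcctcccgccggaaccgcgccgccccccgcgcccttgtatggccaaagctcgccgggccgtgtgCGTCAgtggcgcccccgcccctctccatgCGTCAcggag
Nr4a2: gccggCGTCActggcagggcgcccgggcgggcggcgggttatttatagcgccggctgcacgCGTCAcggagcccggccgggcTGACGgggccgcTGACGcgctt
Nr4a3: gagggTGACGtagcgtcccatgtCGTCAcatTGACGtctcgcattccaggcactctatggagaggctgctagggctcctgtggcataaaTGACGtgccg

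Of all 32851 promoter windows in the table, 20.8% held at least 1 match to TGACG and 0.231% held at least 4. All 4 matches in Nr4a1 lay inside the longer string TGCGTCA, present in 2.12% of windows, and 3 of the 4 in Nr4a3 lay inside TGACGT, present in 7.51%. These 3 motifs, which overlap each other, were chosen after the sequences were seen. Of the other motifs searched on both strands, none of the 3 NR4A windows held TGACGTCA (the full cAMP response element, in 1.79% of windows), TGANTCA (AP-1, 7.81%), the ISRE core bound by interferon regulatory factors (3.44%) or AAAGGTCA (the element that NR4A receptors bind as monomers, 1.51%). GGAAA, the core bound by NFAT and found in 61.3% of windows, had 1 match in Nr4a2 and none in Nr4a1 or Nr4a3. A match is a string of letters in a short window and was not tested for binding.

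**Figure D2:**
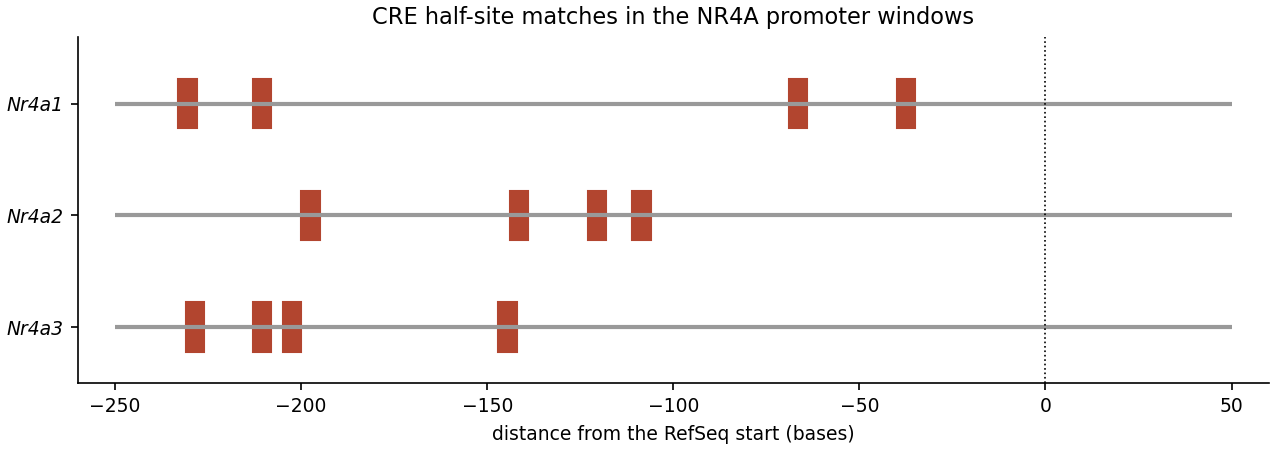
Positions of the matches to TGACG on either strand (red boxes) in the RefSeq promoter windows of Nr4a1, Nr4a2 and Nr4a3, in bases from the annotated start (dotted line). Each gene has 4 matches, all upstream of the start; those of Nr4a1 form 2 pairs, 1 between -233 and -209 and 1 between -69 and -36.

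Nr4a2, also called Nurr1, had the largest difference of the 5 genes. Its brighter probe had levels of 1.84 and 1.95 on Irf4-/- replicates 1 and 2, against -0.35 and 0.34 on wild-type replicates 1 and 2. The Irf4-/- arrays agree closely with each other, and the spread lies in the wild-type arrays, of which replicate 1 is the lower. The difference was 1.90 ± 0.28 (SE), with a 95% interval of 1.18 to 2.61 (2.27-fold to 6.11-fold), and limma gave an adjusted p of 0.0717 over all genes (unadjusted p = 0.00105). By slide row it was 2.19 in row 1 and 1.61 in row 2.

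A second, slightly dimmer Nr4a2 probe for the same RefSeq transcript gave levels of 1.63 and 1.91 on the Irf4-/- arrays, against -0.46 and -0.01 on the wild-type arrays. Again the genotypes do not overlap, and the gap is as wide as for the first probe. Its difference was 2.01 ± 0.23 (SE), or 4.02-fold, with 2.09 in row 1 and 1.92 in row 2. When every probe was tested on its own, a setting added after the data were seen, this probe passed (limma, adjusted p = 0.0411) and the brighter one did not (adjusted p = 0.0639). Both probes report on RNA from the same 4 samples and are not replicates of each other. Of all genes tested, 1.17% had a difference above that of Nr4a2.

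Nr4a1, encoding Nur77, whose level is widely used as a readout of antigen receptor signalling in T cells, differed by less. Its single probe had levels of 7.12 and 7.23 on the Irf4-/- arrays, against 6.52 and 6.33 on the wild-type arrays. The 2 arrays of each genotype lie close together and the genotypes do not overlap. The difference of 0.75 ± 0.18 (SE), with a 95% interval of 0.29 to 1.21 (1.22-fold to 2.31-fold), did not pass over all genes (limma, adjusted p = 0.193; unadjusted p = 0.00884). It was 0.59 in row 1 and 0.90 in row 2, and 5.50% of tested genes had a larger positive difference. None of the 4 spots was saturated, the signal being at least 1350 times the lowest signal called well above background on its array.

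Nr4a3, encoding Nor1, was read by 2 probes that disagree. The brighter one, placed on transcript NM_001307989, had levels of -0.79 and -1.17 on the Irf4-/- arrays, against -1.12 and -1.29 on the wild-type arrays. Irf4-/- replicate 2 lies between the 2 wild-type arrays, so the genotypes overlap. The difference was 0.23 ± 0.21 (SE), with a 95% interval of -0.31 to 0.77, and did not pass (limma, adjusted p = 0.853).

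The dimmer Nr4a3 probe, placed on transcript NM_015743, had levels of -1.01 and -0.80 on the Irf4-/- arrays, against -2.02 and -2.25 on the wild-type arrays. Here the genotypes are apart by more than the spread within either. The difference was 1.23 ± 0.19 (SE), or 2.34-fold, with 1.01 in row 1 and 1.45 in row 2, and it did not pass among all probes (limma, adjusted p = 0.0711; unadjusted p = 0.00119). The interval of the brighter probe does not reach the value of the dimmer one. No label says which probe reads most of the Nr4a3 RNA, and with the mean of both the difference was 0.73 ± 0.18 (SE, adjusted p = 0.218), so Nr4a3 has no settled size.

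Within an array, the Nr4a2 difference exceeded that of Nr4a1 by 1.15 on the log2 scale (1.60 in row 1, 0.71 in row 2) and that of the brighter Nr4a3 probe by 1.67. Nr4a1 exceeded the brighter Nr4a3 probe by 0.52. With 2 arrays against 2, an exact two-sided permutation test cannot give a p below 0.333, and each of these 3 pairs, like Tox against Tox2, gave 0.333 (0.333 after Benjamini-Hochberg adjustment over the 4 pairs). The gap between Nr4a1 and Nr4a3 would turn round with the dimmer Nr4a3 probe.

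Tox was the other gene with a large difference. Its brighter probe had levels of 2.55 and 2.80 on the Irf4-/- arrays, against 1.52 and 0.64 on the wild-type arrays. The wild-type arrays differ from each other by more than the Irf4-/- arrays do, and here wild-type replicate 2 is the lower one, the reverse of Nr4a2. The difference of 1.60 ± 0.33 (SE), with a 95% interval of 0.73 to 2.46 (1.66-fold to 5.49-fold), did not pass over all genes (limma, adjusted p = 0.151; unadjusted p = 0.00513). It was 1.03 in row 1 and 2.16 in row 2, a 2.23-fold change without wild-type replicate 2 and a 4.10-fold change without wild-type replicate 1.

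The dimmer Tox probe, for the same transcript, had levels of -1.15 and -1.11 on the Irf4-/- arrays, against -2.60 and -3.47 on the wild-type arrays. It shows the same order of the 4 arrays as the brighter probe. Its difference was 1.91 ± 0.32 (SE), or 3.75-fold, without passing among all probes (limma, adjusted p = 0.0852). On wild-type replicate 2 its signal was 1.51 times the lowest signal called well above background, so the low end of this probe is less certain.

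Tox2, which is known for its part in follicular helper T cells, was close to the limit of detection. Its single probe had levels of -3.23 and -3.58 on the Irf4-/- arrays, against -3.34 and -3.40 on the wild-type arrays. Both wild-type values lie between the Irf4-/- values. The difference was -0.03 ± 0.20 (SE), with a 95% interval of -0.54 to 0.48 (limma, adjusted p = 0.992). All 4 spots were called well above background, the lowest of them at 1.28 times the lowest signal so called on its array. Differences within that interval, in either direction, are not excluded by these arrays. RefSeq lists 5 promoter windows for Tox2, of which 2 that overlap held the same match to the ISRE core and 1 other held a single match to TGACG; Tox has no entry in the table.

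The relatives Tox3 and Tox4 differed little or were not measured. Tox3 was not well above background on any array. Tox4 had levels of 0.69 and 0.44 on the Irf4-/- arrays, against 0.79 and 0.72 on the wild-type arrays, a difference of -0.19 ± 0.18 (SE) that did not pass (limma, adjusted p = 0.857), and its second probe differed by 0.25.

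**Figure D3:**
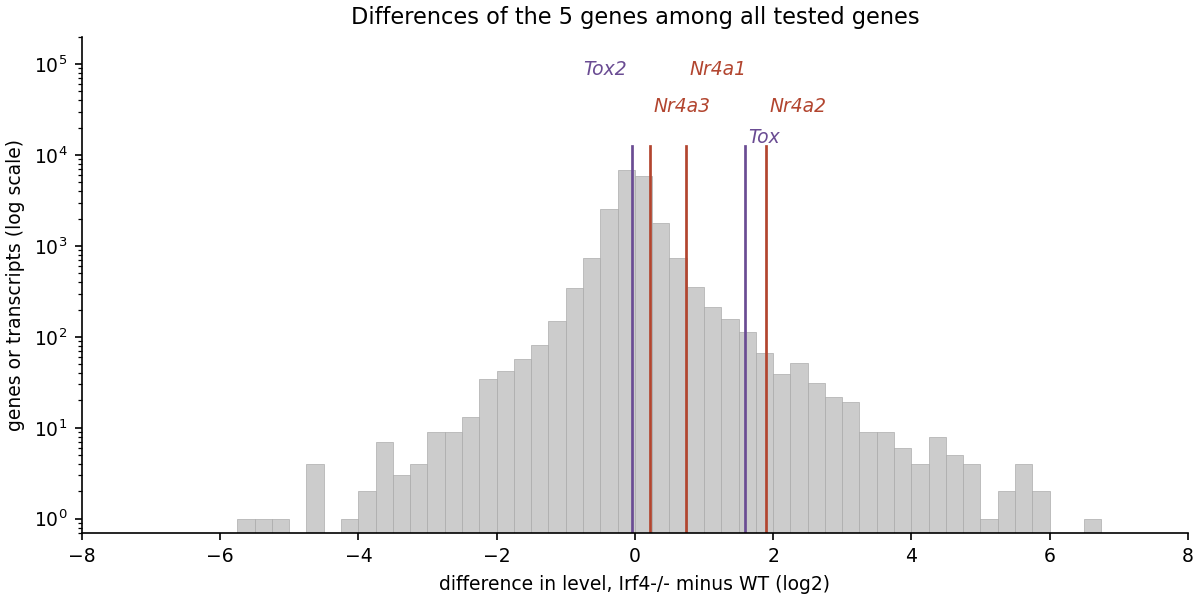
Differences between Irf4-/- and wild-type cells (log2, x axis) for all 20506 genes or transcripts tested, as counts on a log axis, with vertical lines at the brighter or sole probe of each NR4A gene (red) and TOX gene (purple). Nr4a2 at 1.90 and Tox at 1.60 lie in the upper tail, Nr4a1 at 0.75 on its shoulder, and Nr4a3 at 0.23 and Tox2 at -0.03 in the bulk.

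The calls of Nr4a1, Nr4a2 and Tox changed with the processing, while their direction did not. The smallest difference in either direction that passed over all genes was 1.51, below those of Nr4a2 and Tox, whose SEs were larger. With a variance prior that follows brightness and is robust to outlying genes, 3 of the 5 passed, Nr4a2 with an adjusted p of 0.00106, Nr4a1 with 0.0240 and Tox with 0.0402 (limma), and 797 genes in all; limma then gave the prior 9.64 degrees of freedom, against 2.95 as reported. The same 3 passed after normexp background correction, with adjusted p of 1.78e-04 for Nr4a2, 0.0280 for Nr4a1 and 0.00256 for Tox, with 10.4 prior degrees of freedom (limma). With any 1 of the 4 arrays left out no member passed, and the Nr4a2 difference was lowest with wild-type replicate 1 left out (1.55) and highest with wild-type replicate 2 left out (2.25).

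**Figure D4:**
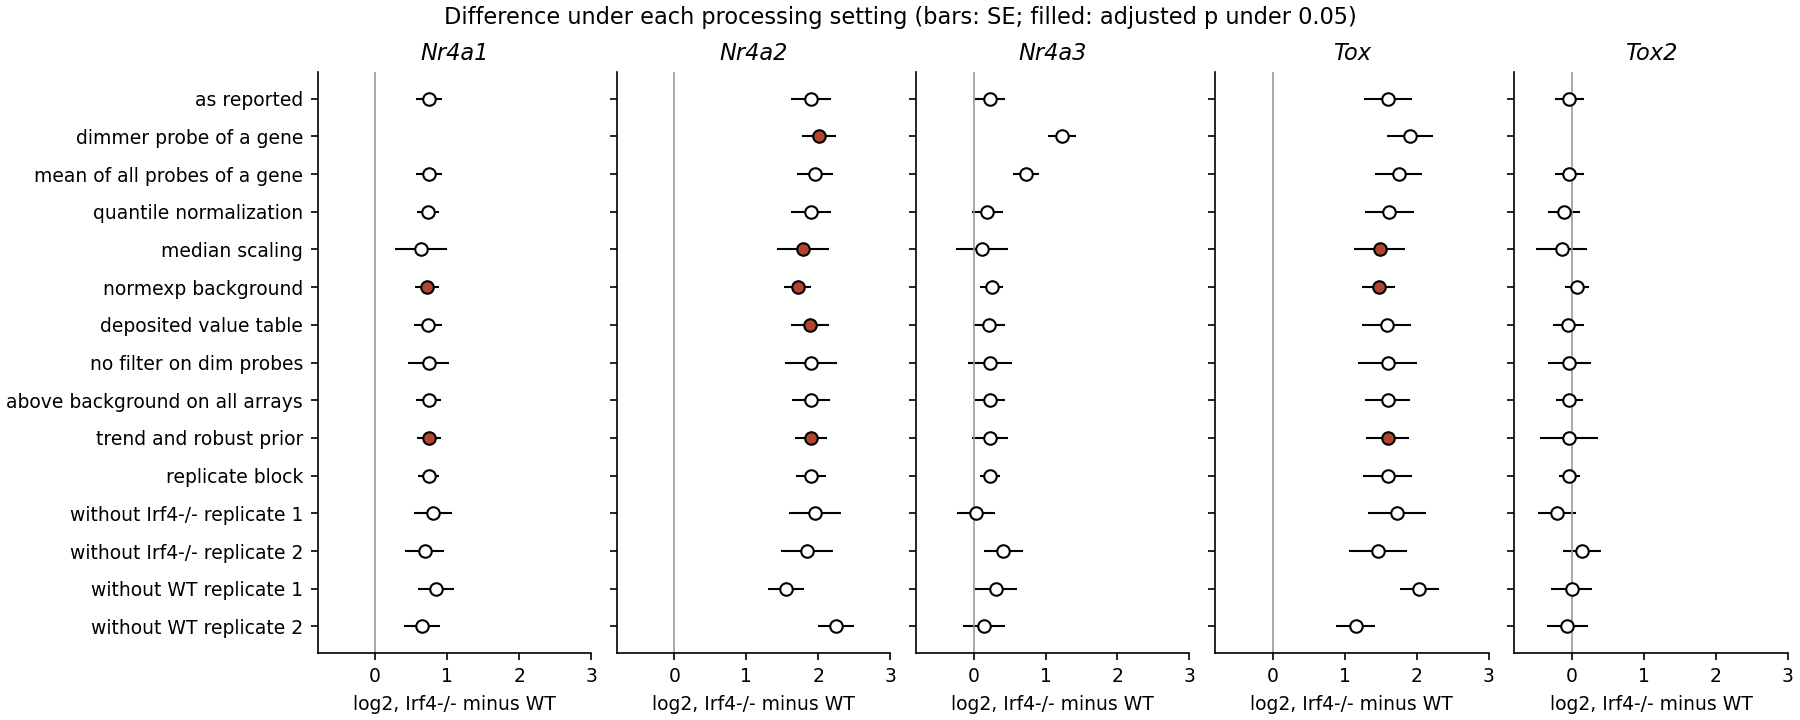
Difference between Irf4-/- and wild-type cells (log2, x axis) for each of the 5 genes, with 1 processing setting per line, with bars of 1 SE and filled points where the adjusted p is under 0.05. Nr4a1, Nr4a2 and Tox stay to the right of 0 on every line shown and are filled on 2, 5 and 3 lines; Nr4a3 moves to 1.23 with its dimmer probe, and Tox2 straddles 0.

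A list of immediate early genes, most of which rise with the NR4A genes on antigen receptor signalling, showed no common direction. Of 31 tested immediate early genes, 0 passed with limma and 10 had an unadjusted p under 0.05. Positive differences were seen for 15 and negative ones for 16, with a median of -0.02, as over all genes tested. Of all genes tested, 0.736% passed, 11.4% had an unadjusted p under 0.05 and 46.7% had a positive difference. These shares also stand beside the counts of the lists that follow. Egr2, a zinc finger factor induced through the same pathway, had levels of 2.45 and 2.14 on the Irf4-/- arrays, against 3.42 and 3.02 on the wild-type arrays. Its difference of -0.93 (adjusted p = 0.208) was opposite in sign to those of Nr4a1 and Nr4a2, without passing. Egr1 differed by -0.29, Egr3 by -0.29, and the AP-1 subunit genes Fos by -0.68, Junb by -0.52 and Jun by 0.69 (adjusted p between 0.351 and 0.874). At the ends of the list lay the phosphatase gene Dusp5 at 0.70 and Klf2 at -1.23 (limma, adjusted p = 0.295 and 0.227). Klf2, a factor of resting T cells, is among the 31 but is not one of those that rise.

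The genes of the calcium, calcineurin and NFAT pathway, which lies upstream of both NR4A and Tox, also lay on both sides of 0. This list was not split by whether a gene promotes or restrains the pathway. Of 19 tested, 0 passed (limma; 6 at an unadjusted p under 0.05), 7 were positive and 12 negative, and the median was -0.06. Nfatc2, encoding the NFAT protein of resting and activated T cells, had levels of 3.07 and 2.90 on the Irf4-/- arrays, against 3.80 and 3.75 on the wild-type arrays, a difference of -0.79 (adjusted p = 0.166). Nfatc1 differed by -0.42 with overlapping genotypes, the calcineurin subunit gene Ppp3cc by -0.69, and Nfat5 by 0.74, the most positive of the list (adjusted p between 0.225 and 0.742).

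Among 17 other nuclear receptor genes tested, 0 passed (limma; 2 at an unadjusted p under 0.05) and 12 were negative, with a median of -0.19. Rxra, encoding a retinoid X receptor with which Nr4a1 and Nr4a2 can pair, differed by -0.89 (adjusted p = 0.449). The thyroid hormone receptor gene Thra differed by -1.09 and the retinoic acid receptor gene Rarg by -1.01 (adjusted p = 0.119 and 0.140), and the most positive was Rora at 1.16 (adjusted p = 0.543).

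Genes of the exhausted state moved in both directions. Of 14 receptor genes tested, Cd160 (difference 3.42, adjusted p = 0.0395) and Tnfrsf9 (1.91, adjusted p = 0.0487) rose, Lag3 (-2.13, adjusted p = 0.0318) fell and 11 did not pass, with a median of -0.06 (limma; 8 at an unadjusted p under 0.05). The 8 include Cd200r1, which was above background on 1 of 2 Irf4-/- arrays and entered the test through the wild-type arrays alone. Over all genes tested, such genes included, 0.736% passed and 11.4% had an unadjusted p under 0.05. Pdcd1, encoding PD-1, which NR4A and TOX factors are known to favour in exhausted cells, had levels of 4.45 and 4.42 on the Irf4-/- arrays, against 2.92 and 2.40 on the wild-type arrays. Its difference of 1.77 ± 0.23 (SE, adjusted p = 0.0599) was close in size to those of Nr4a2 and Tox and likewise did not pass. Havcr2, encoding the receptor TIM-3, differed by -0.63 with overlapping genotypes, and the inhibitory receptor genes Btla and Ctla4 by -1.30 and -0.93 (adjusted p between 0.0666 and 0.809).

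Of 19 transcription factor genes of exhausted and memory cells, Ikzf2 (difference 3.93, adjusted p = 0.0392) rose, Batf3 (-3.63, adjusted p = 0.0318) fell and 16 did not pass, with a median of -0.02 (limma; 10 at an unadjusted p under 0.05). Zeb2, a zinc finger repressor of effector T cells, had levels of -1.66 and -1.39 on the Irf4-/- arrays, against -3.72 and -3.88 on the wild-type arrays, of which only 1 was well above background. It had an adjusted p of 0.0318 (limma) but entered the test through the Irf4-/- arrays alone, where it was the brighter, so it is given by its levels and not counted as a rise. Eomes, a T-box factor also seen in exhausted cells, differed by 1.44 (adjusted p = 0.280) and Batf, the AP-1 partner of Irf4, by 0.91 (adjusted p = 0.165). Maf at -2.99, above background on 1 of 2 Irf4-/- arrays, and Prdm1 at -1.88 were the most negative without passing (adjusted p = 0.144 and 0.506). For Prdm1 the row values of -0.73 and -3.03 differ widely. Zeb2 and Maf, each tested through the arrays of 1 genotype alone, are among the 10 with an unadjusted p under 0.05.

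Of 10 follicular helper genes, with which Tox2 is associated, 0 passed with limma and 6 were negative, with a median of -0.25. An unadjusted p under 0.05 was seen for 5. These include Il21 and Ascl2, above background on 0 and 1 of 2 Irf4-/- arrays, which entered the test through the wild-type arrays alone. Bcl6, the main regulator of that lineage, differed by 0.12 and the chemokine receptor gene Cxcr5 by 0.09 (adjusted p = 0.955 and 0.982). Other genes of the list differed by more. Most positive were Pdcd1 at 1.77 and Tcf7 at 0.23 (limma, adjusted p = 0.0599 and 0.777). Most negative were Il21, given by its levels below, and Ascl2 at -1.28 (limma, adjusted p = 0.175). Every call named in these lists was lost when either wild-type array was left out, or with the replicate number as a block, where limma called 0 genes of the whole table.

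**Figure D5:**
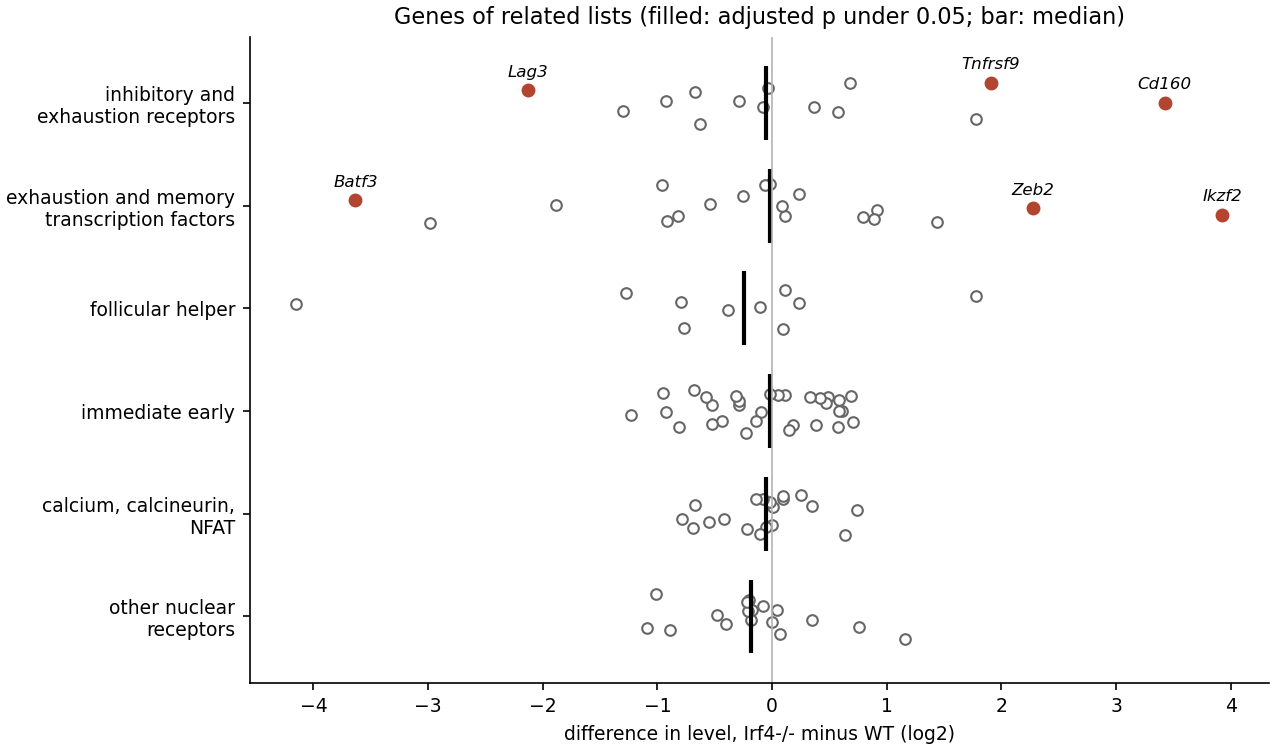
Differences between Irf4-/- and wild-type cells (log2, x axis) for the tested genes of 6 related lists (rows), with filled and named points where the adjusted p is under 0.05 (Zeb2 among them, above background on 1 of 2 wild-type arrays) and a black bar at the list's median. The receptor and transcription factor lists spread to both sides, while the medians of the immediate early and NFAT lists lie close to 0 with members on both sides, from -1.23 to 0.70 and from -0.79 to 0.74; the point at the far left of the follicular helper row is Il21, whose probe was not well above background on either Irf4-/- array.

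Likeness to each member was measured as the root mean square distance between centred levels on the 4 arrays, over 11253 named genes above background on all arrays. Nearest to Nr4a2 were the integrin subunit gene Itgb5 (distance 0.11), Tnfrsf9, encoding the costimulatory receptor 4-1BB (0.12), and Ceacam16 (0.16). Tnfrsf9 had levels of 6.19 and 6.42 on the Irf4-/- arrays, against 4.20 and 4.59 on the wild-type arrays, and alone of these 3 passed (difference 1.91, limma, adjusted p = 0.0487). Nearest to Tox were Trat1, an adaptor gene of the T cell receptor complex (0.067), the cytokine gene Lta (0.096) and Rasgef1b (0.10), all lowest on wild-type replicate 2. Nearest to Nr4a1 were Adck5 (0.022), the transcription factor gene Myb (0.031) and Usp11 (0.034), with differences between 0.70 and 0.79. For the brighter Nr4a3 probe (Mapk8, Spata7, Rnu12) and Tox2 (Bcas3, Macroh2a2, Ppp6r1) the nearest genes differed by at most 0.24 in size, as the members do. With 4 arrays many genes share such a profile, so the distances describe these arrays only.

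Other cells that could remain after the sort also express NR4A genes, and some of their markers moved with genotype. The summed signal of 11 T cell marker genes was 1754 and 1653 times the array's 75th percentile on the Irf4-/- arrays, against 1733 and 1580 on the wild-type arrays, with all 11 above background throughout. For 13 B cell markers it was 18.2 and 12.4 on the Irf4-/- arrays, against 6.06 and 3.66 on the wild-type arrays, with 9 above background on every array, Ebf1 on none, and Fcmr called higher. For 4 natural killer cell markers it was 3.0 and 3.67 on the Irf4-/- arrays, against 0.691 and 1.35 on the wild-type arrays, with Ncr1 on none. That sum is nearly all Klrd1, the only one of the 4 bright enough to be tested, which had levels of 1.52 and 1.86 on the Irf4-/- arrays, against -0.73 and 0.37 on the wild-type arrays (difference 1.87, limma, adjusted p = 0.157). For 14 myeloid markers it was 67.65 and 83.27 on the Irf4-/- arrays, against 66.7 and 82.91 on the wild-type arrays, with 7 on no array (Adgre1, Clec9a, Fcgr3, Itgax, Lyz2, Spi1 and Xcr1). That sum is carried by Siglech, with a difference of 0.03, and does not show the dimmer genes. Of the 6 myeloid markers tested, 5 were positive and 3 had an unadjusted p under 0.05, without any passing (limma). Those 3 were Tyrobp at 1.87 (adjusted p = 0.0650), Fcer1g at 0.90 (adjusted p = 0.259) and Cd68 at 0.60 (adjusted p = 0.249). Each had both Irf4-/- arrays above both wild-type arrays, as did 17.9% of all genes tested. The 2 CD8 genes summed to 4.76 and 4.45 on the Irf4-/- arrays, against 8.77 and 9.29 on the wild-type arrays. This too is nearly all 1 gene, Cd8b1 (difference -0.98, limma, adjusted p = 0.0980), since Cd8a was too dim to be tested. The part of B cell, natural killer cell or myeloid RNA in the NR4A and Tox differences was not tested.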

How the data were processed

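One-colour (Cy3) arrays of 2 Irf4-/- and 2 wild-type samples were used. Per the file headers, the authors read the spot intensity using version 11.0.1.1 of Agilent Feature Extraction, while the submitters' processing notes name 9.1; the deposited processed intensity is background-subtracted and not normalized between arrays. The deposited log2 value table matched the same signals centred per probe (r = 1 on every array), and its column medians were -0.11 and 0.12 (Irf4-/-) and -0.17 and 0.10 (wild type); its centring removes levels, so it served as an alternative.

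Control and flagged spots were left out; 137 probes lost a value on some array. Accessions named 32994 probes through a RefSeq table of GRCm38.p6. Levels are log2 of the processed signal, less the 75th percentile of its array. The brightest probe stood for a gene, and genes well above background on both arrays of a genotype were tested with limma 3.58.1 in R 4.3.3 (lmFit, eBayes; 2 residual and 2.95 prior degrees of freedom); the fit was tested on simulated data. Errors beside means are SD, beside differences SE. Members and lists were chosen with earlier results of these data known. Named genes were all members and, per list, those passing (up to 4), most of the 2 most extreme others each way and a few fixed names. Of those extremes, Ier3 (-0.95), Rcan3 (0.63), Nr1d2 (0.76) and Cd38 (0.68) were left out above, and none of them passed. Bcl6, Cxcr5, Tox3 and the second probes were added after their values were seen. Normexp used the median spot signal, since the files hold no mean signal. Alternatives were other scalings, background corrections, filters, probe choices, priors, a replicate block and leaving out each array.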

Additional observations from a re-analysis of the deposited data

How the results depend on the processing

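The differences of Nr4a1 (0.64 to 0.84 on the log2 scale), Nr4a2 (1.55 to 2.25), Nr4a3 (0.04 to 1.23) and Tox (1.16 to 2.04) were positive in every alternative run, with adjusted p from 0.0240 to 0.970, 3.10e-05 to 0.582, 0.0711 to 1 and 0.00118 to 0.759. Tox2 turned round with normexp (0.068) and in the leave-one-out range (-0.21 to 0.14), never near the threshold. Against 0 members called and 151 genes in all, median scaling called 2 members (Nr4a2 at 1.79, Tox at 1.49) and 1042 genes, 594 higher and 448 lower; its median over all differences was -0.13, against -0.02 as reported. Under median scaling limma estimated an infinite prior, which gives all genes 1 shared variance (smallest adjusted p 1.14e-69), so these calls follow the size of a difference and not the spread of the gene. Normexp called 3 members (Nr4a1 at 0.72, Nr4a2 at 1.72, Tox at 1.47) and 760 genes, and the trend and robust prior 3 (0.75, 1.90 and 1.60) and 797. The deposited value table called Nr4a2 alone (1.88) and 260 genes. Settings added after seeing the data called 1 member: the dimmer probe of a gene Nr4a2 (2.01), and every probe on its own the dimmer Nr4a2 probe (2.01) among 267 probes. Quantile normalization called 1 gene and no filter on dim probes 0 (2099 at an unadjusted p under 0.05). A replicate block (the number is also the row on the slide) gave 0 calls with limma (3195 unadjusted) and left Nr4a2 at an adjusted p of 0.126; same-numbered arrays deviated together at r = 0.348, which with 2 pairs does not establish pairing. Leaving out 1 array, the count of genes ran from 0 (without wild-type replicate 1, 1864 unadjusted, or 2, 1677 unadjusted) to 487. The causes of these changes were not tested. Signal over background limits Tox2 and the dimmer Tox probe.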

Other observations

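Il21, a cytokine gene of the follicular helper list, was also read by probes that differ. Its brighter probe had levels of -4.63 and -5.92 on the Irf4-/- arrays, neither well above background, against -2.14 and -0.10 on the wild-type arrays. Its second probe, above background on 1 array of each genotype, had -4.22 and -5.36 on the Irf4-/- arrays, against -4.33 and -4.38 on the wild-type arrays, so no fold is given for Il21.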
